A study of Mus musculus with 2 samples.

Results

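Glycolytic enzymes were taken by gene name, as the 10 genes Hk1, Hk2, Gpi1, Pfkl, Pfkm, Pfkp, Aldoa, Pgk1, Pkm and Ldha, and every probe set annotated with one of these names or an older alias was used. A probe set is a group of short probes on the array meant to read a given transcript, and some are assigned to several genes. Of the 10 genes, 9 had at least 1 probe set that names this gene alone, 20 probe sets among the 45037 that are not array controls. Gpi1, the isomerase that turns glucose 6-phosphate into fructose 6-phosphate, was named by no probe set of the annotation used and was not analysed here. The filter on dim probe sets, a mean signal of at least 50 over both arrays, was passed by 18 of the 20 probe sets and by at least 1 probe set of each of the 9 genes. The same filter left values for 11756 genes over the whole array.

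The animals were males of the inbred mouse strain C57BL/6J, aged 4 months, and they received a semisynthetic diet of which 20% of the weight was fat over 4 weeks. In the control diet all fat was flaxseed oil, which is rich in the n-3 fatty acid ALA. In the EPA&DHA diet, 44% of this fat was replaced by a concentrate holding 6% EPA and 51% DHA, the long chain n-3 fatty acids of marine origin. Each diet was fed to 12 mice, and RNA of the small intestine was pooled from 10 control and 11 EPA&DHA mice before 1 array was hybridized per pool. The study's methods describe epithelial scrapings, whereas the labels name the complete small intestine. There are thus no replicates, the values carry no measure of the spread between mice, and the comparisons below are ratios of 1 array to 1 array with neither test nor error. In pooled tissue RNA, fewer cells of a type and less RNA per cell cannot be told apart.

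Glycolysis splits glucose into pyruvate in the cytosol and yields ATP without oxygen. Hexokinase traps glucose in the cell as glucose 6-phosphate, phosphofructokinase commits the sugar to breakdown, and pyruvate kinase makes the final ATP. These are the steps that cells control, and each is served by several isoforms that differ between tissues. Lactate dehydrogenase turns pyruvate into lactate and so renews the NAD+ that the pathway consumes. Absorptive enterocytes of the small intestine are known to burn mainly glutamine and fatty acids besides glucose, while dividing crypt cells depend more on glycolysis.

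The signals of most glycolytic enzymes were somewhat lower on the EPA&DHA array. With each gene represented by its probe set of highest mean signal (the brightest), the ratio of EPA&DHA to control signal was below 1 in 8 of 9 genes, and Pfkl, the liver type phosphofructokinase, was the exception. The median log2 ratio of the 9 genes was -0.29, against -0.05 over all 11756 genes. Lowest were the muscle type phosphofructokinase Pfkm at -0.50 and the hexokinases Hk1 and Hk2, both at -0.47. These were small differences, since none of the 9 reached a fold of 1.5 downwards, as 8.02% of all genes did, and none reached it upwards, as 6.24% did. At a fold of 1.2, 6 of 9 were lower (Hk1, Hk2, Pfkm, Pfkp, Pkm and Ldha) against 24.8% of all genes, and 1 of 9 was higher against 18.7%. A ratio below 1 was found in 56.5% of all genes. Among the 7611 genes whose mean signal was no less than the 249.8 of Pfkm, the lowest mean among the 9, 18.6% were at least 1.2-fold lower and 57.0% had a ratio below 1. Ldha was only just past the fold of 1.2, at 1.21-fold lower, and did not reach it after centring on the median (log2 ratio -0.24), loess correction (-0.22) or quantile normalization (-0.14). Pfkp did not reach it after centring (-0.25) or with its probe sets averaged.

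**Figure D1:**
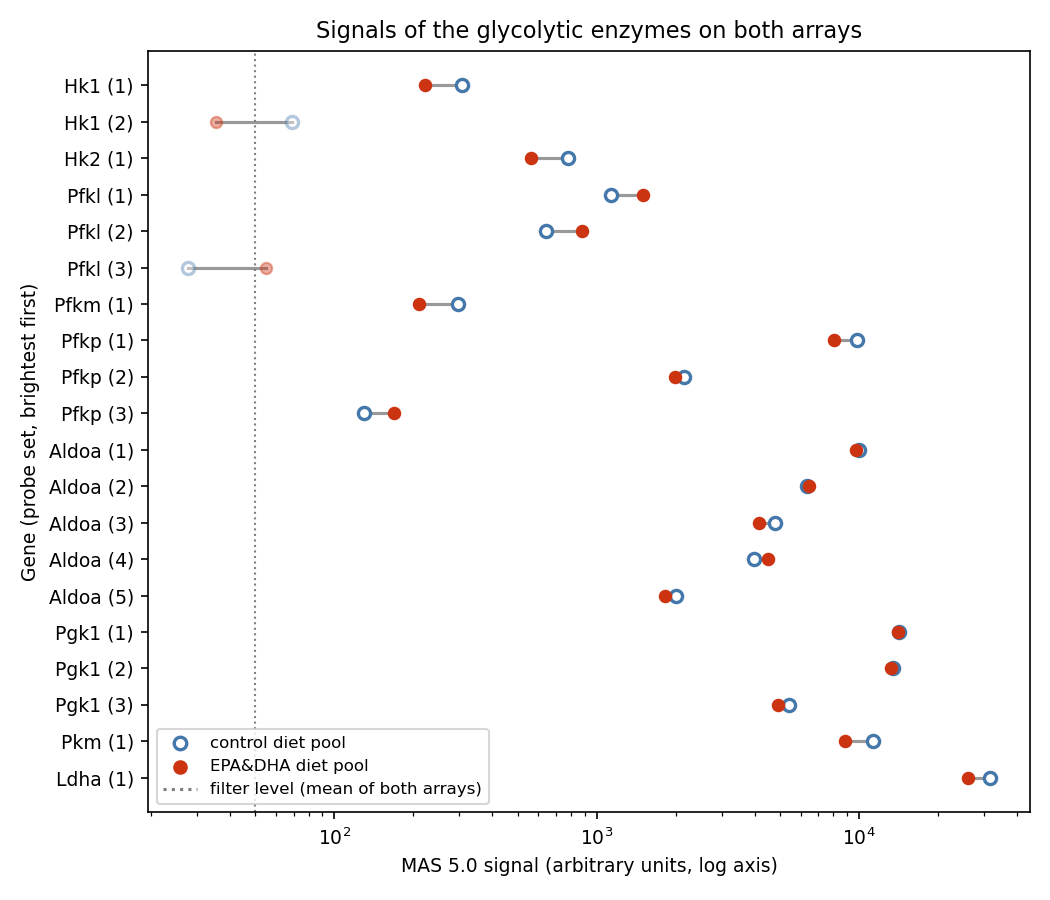
Array signal after the control diet (open blue circles) and after EPA&DHA (filled red circles) for each of the 20 probe sets of the glycolytic enzymes, on a log axis, with the probe sets of a gene numbered from the brightest. Pale symbols are the 2 probe sets that failed the filter on the mean of both arrays, whose level is the dotted line, and the red circle lies to the left for Hk1, Hk2, Pfkm, Pkm and Ldha and to the right for Pfkl.

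The spread of ratios depends on how bright a probe set is, so each ratio was set beside a local SD, the robust SD of the log2 ratios of the 500 kept probe sets nearest in signal. Over the 18 kept probe sets of the enzymes the local SD ran from 0.19 for Ldha to 0.48 for the dimmest probe set of Pfkp. At least 1 local SD under the local median were 5 of 9 genes (Hk1, Hk2, Pfkm, Pfkp and Pkm), against 16.3% of all genes. At least 1 local SD over it was 1 of 9, Pfkl, against 15.6%. This spread includes whatever differed between the pools and is not an error of measurement. Counted over probe sets, 13 of 18 had a ratio below 1 against 54.4% of all kept probe sets, 6 were at least 1.2-fold lower against 26.1%, and 3 were at least 1.2-fold higher against 21.7%.

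**Figure D2:**
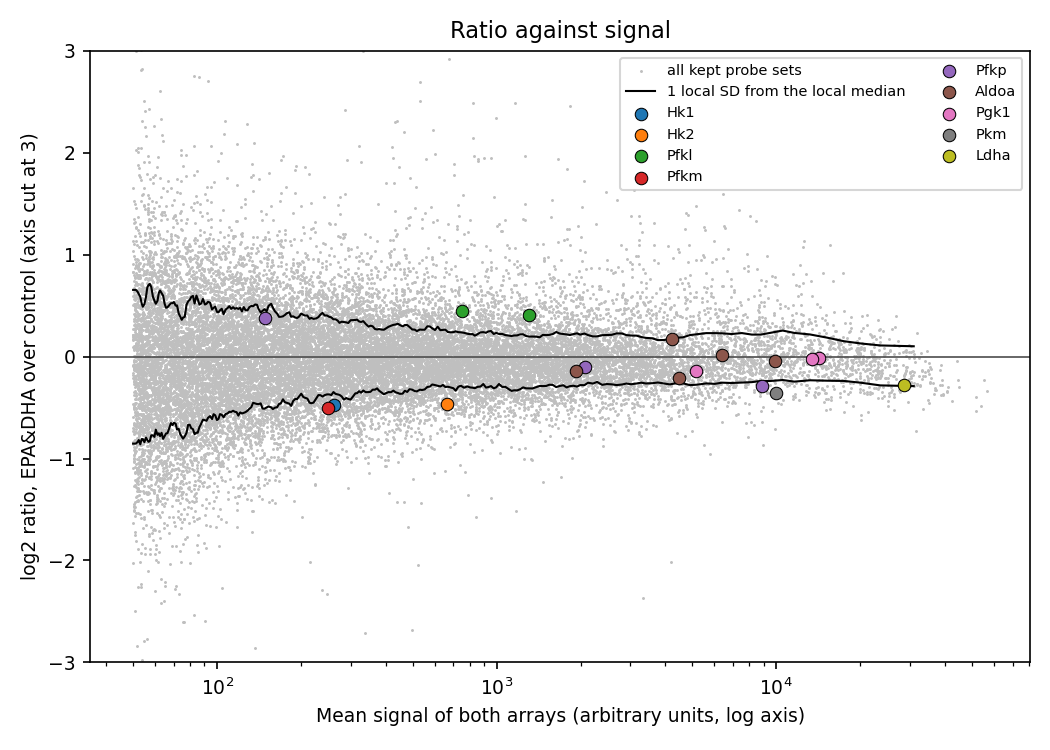
Log2 ratio of EPA&DHA over control against the mean signal of both arrays (log axis) for all kept probe sets (grey) and the 18 kept probe sets of the glycolytic enzymes (coloured by gene), with black lines 1 local SD above and below the local median. Hk1, Hk2, Pfkm, Pkm and the brightest probe set of Pfkp lie under the lower line, and both probe sets of Pfkl lie over the upper one.

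Promoters are shown for the phosphofructokinases, whose isoforms had different ratios, and for Hk2 and Ldha, to place the sequence beside the values that follow. Those of the other enzymes were searched in the same way but are not shown. HIF-1, the factor that induces glycolytic genes at low oxygen, binds the core ACGTG, MYC and the glucose sensor ChREBP bind E-boxes such as CACGTG, and SP1 binds the GC box GGGCGG. RefSeq windows of build GRCm38.p6, from 250 bases before to 50 after an annotated start, were found for all 10 enzymes, with 18 windows in all, since some genes have several starts. Searched on both strands, ACGTG was present in at least 1 window of 7 of 10 enzymes and in 21.8% of all genes of that table, and in 9 of 18 windows against 19.6% of all windows. An E-box, which contains the core ACGTG and so is counted in both, was found in 2 of 10 enzymes (Ldha and Pfkm) against 8.09% of genes, and a GC box in 8 of 10 against 38.2%. The DR1 element of PPARα was found in 0 of 18 windows and in 0.0396% of all windows. The windows of the enzymes were rich in G and C, with a median of 61.8% against 52.7% over all windows, and genes with several starts have more chances of a match. The windows below are those of Hk2 (chr6:82774405-82774704, minus strand), Pfkl (chr10:78009758-78010057, minus), Pfkm at one of its 4 starts (chr15:98108221-98108520, plus), Pfkp (chr13:6648722-6649021, minus) and Ldha at one of its 2 starts (chr7:46845554-46845853, plus), read 5′ to 3′ along the gene, with every match to these motifs on either strand in capitals.
Hk2: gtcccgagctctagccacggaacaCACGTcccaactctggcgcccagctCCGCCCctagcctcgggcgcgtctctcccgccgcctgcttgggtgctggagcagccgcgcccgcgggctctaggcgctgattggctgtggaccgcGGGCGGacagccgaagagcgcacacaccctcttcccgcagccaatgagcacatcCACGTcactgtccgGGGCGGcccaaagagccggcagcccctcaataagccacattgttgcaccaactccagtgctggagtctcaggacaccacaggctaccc
Pfkl: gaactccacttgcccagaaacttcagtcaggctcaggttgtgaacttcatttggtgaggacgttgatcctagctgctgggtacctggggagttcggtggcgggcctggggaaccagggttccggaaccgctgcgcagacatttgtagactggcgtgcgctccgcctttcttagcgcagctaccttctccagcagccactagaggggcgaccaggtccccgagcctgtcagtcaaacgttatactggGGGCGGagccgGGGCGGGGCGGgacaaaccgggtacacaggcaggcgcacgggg
Pfkm: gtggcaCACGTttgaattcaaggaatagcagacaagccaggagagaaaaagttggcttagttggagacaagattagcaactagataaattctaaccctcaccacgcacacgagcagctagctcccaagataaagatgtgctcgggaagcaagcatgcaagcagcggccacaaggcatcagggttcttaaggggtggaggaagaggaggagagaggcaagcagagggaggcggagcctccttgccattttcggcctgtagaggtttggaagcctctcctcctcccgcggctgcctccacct
Pfkp: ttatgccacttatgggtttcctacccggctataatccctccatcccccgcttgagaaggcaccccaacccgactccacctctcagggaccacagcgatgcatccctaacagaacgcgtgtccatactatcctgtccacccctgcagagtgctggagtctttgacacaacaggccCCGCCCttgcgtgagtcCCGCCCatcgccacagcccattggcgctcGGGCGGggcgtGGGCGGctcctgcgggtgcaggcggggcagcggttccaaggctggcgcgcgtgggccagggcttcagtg
Ldha: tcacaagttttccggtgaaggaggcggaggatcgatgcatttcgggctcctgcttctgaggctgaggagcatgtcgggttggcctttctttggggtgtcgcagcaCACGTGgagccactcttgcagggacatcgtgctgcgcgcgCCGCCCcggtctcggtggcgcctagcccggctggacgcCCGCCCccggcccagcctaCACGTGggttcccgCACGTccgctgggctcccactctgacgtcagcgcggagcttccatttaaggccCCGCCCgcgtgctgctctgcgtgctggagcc
The Ldha window held 2 E-boxes, each of which reads ACGTG on both strands, 1 further match to ACGTG and 3 GC boxes. The Pfkm window shown held 1 match to ACGTG, and the E-box of that gene lies at another of its starts. The Hk2 window held 2 matches to ACGTG and 3 GC boxes, and those of Pfkl and Pfkp held 3 and 4 GC boxes and no match to ACGTG. The 7 enzymes with the core ACGTG in a window (Aldoa, Hk1, Hk2, Ldha, Pfkm, Pgk1 and Pkm) had log2 ratios from -0.50 to -0.01, and the 2 measured ones without it were Pfkp at -0.29 and Pfkl at 0.41. A match is a string of letters and not a binding site, and occupancy of these promoters was not measured.

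At the first step, both hexokinases had lower signals on EPA&DHA. Hk1, the hexokinase of most tissues, lies at chr10:62268855-62379920 and had a control signal of 308 and an EPA&DHA signal of 221. It was 1.39-fold lower, and its log2 ratio was -0.47 where the local SD was 0.36. Its second probe set had signals of 68.9 and 35.4, and with a mean signal of 49.4 it lay just under the filter. A further probe set that names Hk1 also names the ribosomal protein gene Rpl17 and 4 related loci, so its signals of 16633 and 18383 cannot be assigned to Hk1. Hk2, the insulin-responsive hexokinase of muscle and of growing cells, lies at chr6:82725025-82774454 and had signals of 778 and 562 on its only probe set. The EPA&DHA value was 1.38-fold lower, with a log2 ratio of -0.47 and a local SD of 0.27. The hexokinase domain gene Hkdc1, outside the list of 10, had signals of 7770 and 6745 and a log2 ratio of -0.20, where the local SD was 0.24. All 3 measured hexokinase genes thus lay below 0, as did 56.5% of all genes.

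Phosphofructokinase, which makes fructose 1,6-bisphosphate, was the step of the listed enzymes whose isoforms lay on both sides of a ratio of 1. The enzyme is built from the subunits of liver type (Pfkl), muscle type (Pfkm) and platelet type (Pfkp), which mix in most tissues. Pfkl, at chr10:77986947-78009807, had signals of 1130 after control and 1502 after EPA&DHA, 1.33-fold higher with a log2 ratio of 0.41 and a local SD of 0.25. Its next probe set repeated this, with 641 and 876 and a log2 ratio of 0.45. The remaining one was dim, with 27.8 and 55.1, and did not pass the filter, although it lay on the same side. Pfkl was the only enzyme of the 9 whose probe sets all had a higher signal on EPA&DHA.
Pfkm, at chr15:98092589-98132447, had signals of 297 and 210 on its only probe set, 1.42-fold lower with a log2 ratio of -0.50 and a local SD of 0.39. Pfkp, at chr13:6579874-6649060, had signals of 9799 and 8016 on its brightest probe set, 1.22-fold lower with a log2 ratio of -0.29. Its other probe sets did not repeat this value. The second had 2152 and 1998, a log2 ratio of -0.11, and the third had 130 and 169, a log2 ratio of 0.38 with a local SD of 0.48. When the 3 kept probe sets of Pfkp were averaged its log2 ratio was -0.01. The log2 ratio of Pfkl exceeded that of Pfkm by 0.91 and that of Pfkp by 0.70, or by 0.44 for Pfkp with averaged probe sets, and these gaps between isoforms could not be tested with 1 array per diet.

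**Figure D3:**
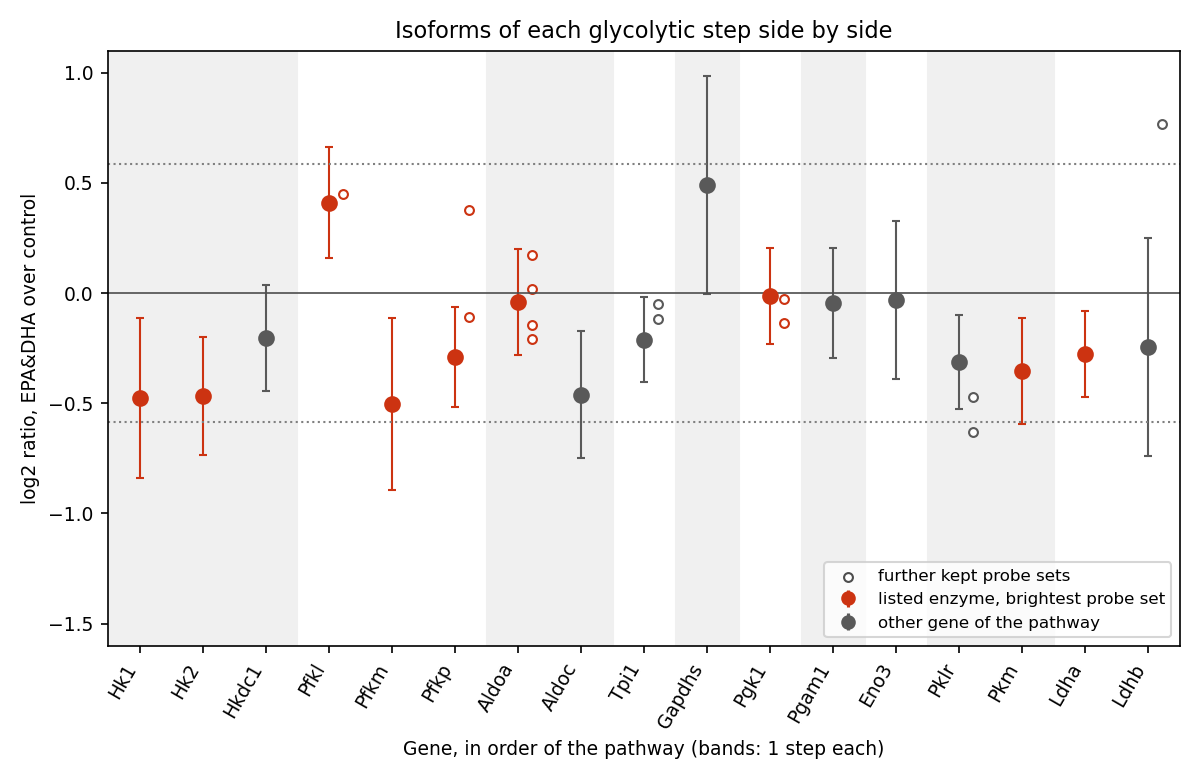
Log2 ratio of EPA&DHA over control for the brightest kept probe set of each measured gene (filled circles) in the order of the pathway, with bars of 1 local SD and bands that mark the isoforms of 1 step, red for the listed enzymes and grey for other genes. Open circles are further kept probe sets and dotted lines mark a fold of 1.5, and Pfkl at 0.41 stands over Pfkm at -0.50 and Pfkp at -0.29 within the same step.

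Aldoa and Pgk1, listed enzymes from the middle of the pathway, lay close to a ratio of 1 on their brightest probe sets. Aldoa, the aldolase of muscle and many other tissues, splits fructose 1,6-bisphosphate into triose phosphates and lies at chr7:126795234-126800994. Its brightest probe set had signals of 10030 and 9749, a log2 ratio of -0.04. The other 4 had log2 ratios of 0.02, -0.21, 0.17 and -0.15, so the 5 probe sets fell on both sides of 1 and all within 1 local SD of the local median. All 5 are of the type marked _x_at, in which some probes may bind other sequences. Pgk1, the phosphoglycerate kinase that makes the first ATP of the pathway, lies at chrX:106187100-106203699. It had signals of 14233 and 14102 on its brightest probe set, 13543 and 13304 on the second and 5411 and 4919 on the third. Their log2 ratios were -0.01, -0.03 and -0.14, and the sign of the first turned when ratios were centred on their median or corrected by loess, to 0.02 in both.

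The enzymes at the end of the pathway had lower signals on EPA&DHA. Pkm, the pyruvate kinase of muscle and most other tissues, is spliced into different forms, which were not told apart here. It lies at chr9:59656576-59679372 and had signals of 11269 after control and 8814 after EPA&DHA, 1.28-fold lower with a log2 ratio of -0.35 and a local SD of 0.24. Pklr, the pyruvate kinase of liver and red cells and not among the 10, pointed the same way on each of its 3 kept probe sets, with log2 ratios of -0.31, -0.63 and -0.47. Its brightest had signals of 4091 and 3297. Ldha, the lactate dehydrogenase subunit that favours lactate production, lies at chr7:46842274-46855627 and had signals of 31520 and 26032. Its log2 ratio was -0.28, where the local SD was 0.19 and the local median -0.09, so that it lay within 1 local SD of probe sets of similar signal. Ldhb, the subunit that favours the return to pyruvate, was dim, with signals of 144 and 122 and a log2 ratio of -0.25, and its other kept probe set had a log2 ratio of 0.77 with a local SD of 0.75.

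Genes that complete the pathway were measured for 10 of a further list of 19. On the brightest probe set 9 of the 10 had a ratio below 1, against 56.5% of all genes. This count depended on the choice of probe set. Bpgm, Ldhb and Adpgk, all counted below 1, each had another kept probe set above it, with log2 ratios of 0.43, 0.77 and 0.02. Of the 10, 3 were at least 1.2-fold lower (Aldoc, Pklr and Adpgk), against 24.8% of all genes. At least 1.2-fold higher was 1 of the 10, against 18.7%. This was Gapdhs, the sperm form of glyceraldehyde 3-phosphate dehydrogenase, from dim signals of 111 and 156. On the brightest probe set none was 1.5-fold lower, against 8.02% of all genes, and none 1.5-fold higher, against 6.24%. The second kept probe set of Pklr was 1.55-fold lower and that of Ldhb 1.70-fold higher. The median log2 ratio of the 10 was -0.21, or -0.086 with the kept probe sets of a gene averaged. The brain aldolase Aldoc had a log2 ratio of -0.46, from 830 to 602. Tpi1, the triosephosphate isomerase, had log2 ratios of -0.21, -0.12 and -0.05 on its probe sets. Pgam1 (phosphoglycerate mutase) and Eno3 (the muscle enolase) stood at -0.05 and -0.03. Bpgm, which makes the regulator of oxygen binding in red cells, had log2 ratios of -0.01, 0.43 and -0.35, and Adpgk, a kinase that uses ADP to phosphorylate glucose, -0.35 and 0.02 on dim probe sets. The genes of this list without a kept probe set of their own were not analysed here.
Gapdh was read by probe sets shared with its pseudogenes, with log2 ratios of -0.52, 0.11 and -0.55. The array's own control probe sets for Gapdh gave -0.20 at the 5′ end, -0.24 in the middle and -0.43 at the 3′ end of the transcript. Those for Actb, which encodes β-actin and is no glycolytic gene, gave -0.27, -0.35 and -0.34, as low as many of the glycolytic enzymes. The ratio of 3′ to 5′ signal, a measure of intact RNA, was 0.932 for Gapdh in the control pool and 0.793 in the EPA&DHA pool, and 1.22 and 1.16 for Actb. Whether the difference in the ends bears on the ratios of the enzymes was not tested.

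Fructose 2,6-bisphosphate, the main activator of phosphofructokinase, is made and broken down by enzymes of the Pfkfb family. Of 4 measured genes that set its level, 2 lay at least 1.5-fold lower, against 8.02% of all genes, and none that far higher, against 6.24%. Pfkfb4 had signals of 3021 and 1973, a log2 ratio of -0.61. Tigar, a phosphatase that lowers the activator, had a log2 ratio of -0.60 on its brightest probe set, but its 3 kept probe sets ran from -0.60 to 1.02. Pfkfb3 stood at 0.25 on its brightest probe set and -0.64 on the other, and the 4 kept probe sets of Pfkfb2 ran from -0.71 to -0.08. The direction thus depended on the probe set in Tigar and Pfkfb3.

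Genes that carry glucose and lactate across membranes lay near a ratio of 1. With each gene's brightest probe set, 0 of 7 measured transport genes were at least 1.2-fold apart, against 24.8% of all genes lower and 18.7% higher. The median log2 ratio on the brightest probe set was -0.02. Slc5a1, the sodium-coupled glucose transporter of the brush border, had signals of 30337 and 28348 and a log2 ratio of -0.10 there, but 0.74 on its other kept probe set. Slc2a2, the facilitative glucose transporter of liver and intestine, had 19300 and 19395 on its only one. The lowest was the lactate carrier Slc16a1 at -0.17 and the highest the lactate exporter Slc16a3 at 0.06. In gluconeogenesis, which runs the pathway in reverse, 1 of 7 measured genes was at least 1.5-fold higher, against 6.24% of all genes. That far lower were 0 of 7, against 8.02%. The higher one was Pck1, the enzyme that makes phosphoenolpyruvate, with signals of 2181 and 4812, while Fbp1 and Fbp2, which oppose phosphofructokinase, stood at -0.11 and -0.08. In the pentose phosphate branch, which takes glucose 6-phosphate away, 0 of 6 genes were at least 1.2-fold apart on the brightest probe set, from Pgd at -0.19 to Rpia at 0.21. The 3 kept probe sets of Tkt, the transketolase, ran from -0.39 to 0.36.
Genes that govern entry of pyruvate into mitochondria were mixed. Of 12, 3 were at least 1.5-fold higher, against 6.24% of all genes, and 1 was 1.5-fold lower, against 8.02%. The higher ones were the kinases Pdk4, Pdk1 and Pdk3, which switch pyruvate dehydrogenase off, while the kinase Pdk2 stood at 0.04. Pdk4 had a log2 ratio of 1.61. Pdk1 had a log2 ratio of 0.92 on its brightest probe set, but its 3 kept probe sets went down to 0.12, and Pdk3 stood at 0.68. The phosphatases that switch the complex back on, Pdp1 and Pdp2, stood at -0.82 (from a dim control signal of 106) and -0.41.

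**Figure D4:**
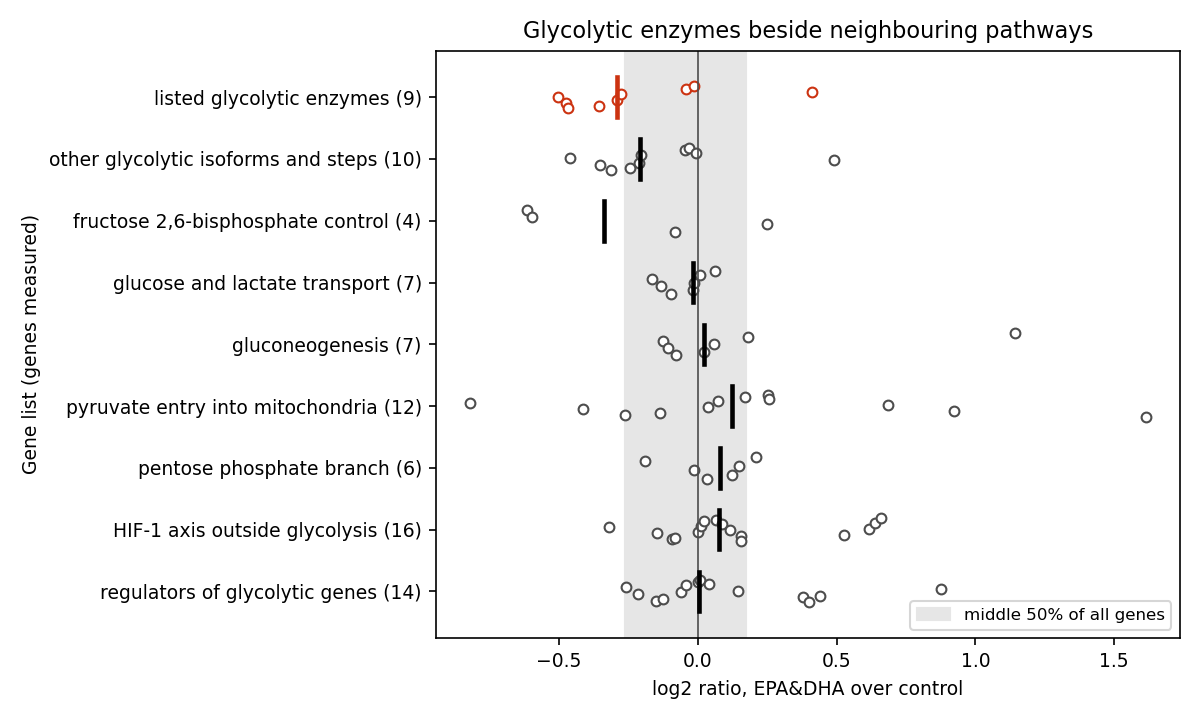
Log2 ratio of EPA&DHA over control for each measured gene (circles) of the listed glycolytic enzymes (red) and of 8 neighbouring gene lists (black), with the number of genes in brackets and bars at the medians. The grey band holds the middle 50% of all genes, from -0.26 to 0.17, and describes single genes, not medians of lists. The median is -0.29 for the listed enzymes, -0.02 for transport and 0.02 for gluconeogenesis.

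On their brightest probe sets, genes known to regulate glycolytic genes, and genes of the HIF-1 axis, lay mostly near or above a ratio of 1. The kept probe sets of a gene could fall on both sides of 1. They ran from -0.48 to 0.43 in Akt1, from -0.51 to 0.14 in Insr and from -0.50 to 0.09 in Vhl. That axis held subunits of HIF and their regulators as well as targets. Of 16 measured genes of the HIF-1 axis outside glycolysis, 3 were at least 1.5-fold higher, against 6.24% of all genes. None was 1.5-fold lower, against 8.02%. A ratio above 1 was found in 12 of the 16 and a ratio below 1 in 4, against 56.5% of all genes below 1. The median log2 ratio was 0.07. Lowest was Kdm3a at -0.32, from 2142 to 1716. Ndrg1, a stress response gene, stood at 0.66 on its brightest probe set and higher on the other 4, Bnip3, which triggers removal of mitochondria, at 0.62, and the angiogenic factor Vegfa at 0.64 but at -0.13 on its other probe set. Hif1a, the oxygen-regulated subunit of HIF-1, had signals of 5568 and 8025, and its 3 probe sets ran from 0.29 to 0.94. The 9 measured glycolytic enzymes, many of them known targets of HIF-1, had log2 ratios from -0.50 to 0.41. HIF-1 activity was not measured, and whether the genes of this axis bear on the ratios of the enzymes was not tested. Of 14 measured regulators, 1 was at least 1.5-fold higher, the fatty acid receptor gene Ppara at 0.87, and 0 were 1.5-fold lower, against the same shares of all genes. Myc stood at 0.44 from dim signals of 209 and 284, and Mlxipl, which encodes ChREBP, at -0.13.

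Markers of the cells that the RNA may hold were set beside these values, each by its brightest kept probe set. Another kept probe set could have the other sign. The brightest lay below 1 but another had a log2 ratio of 1.37 for Agr2 (goblet cells) and 0.81 for Mcm6 (crypt cells). The same held for the stem cell markers Lgr5 and Ascl2, with 1.12 and 2.31. For Apob (enterocytes) and Itgae (T cells) the brightest lay above 1 but another stood at -0.50 and -0.77. Absorptive enterocytes were represented by 8 of 9 markers, all bright on both arrays and with a median log2 ratio of -0.14. Of these, 7 lay below 1, against 56.5% of all genes. The summed signal of the enterocyte markers was 284629 on the control and 250676 on the EPA&DHA array. Goblet cell markers were below 1 in 6 of 6 genes, against the same share, with a median of -0.29 and summed signals of 123641 and 98820. Proliferating crypt cells had 3 of 7 markers below 1 and a median of 0.03, and the median of 6 enteroendocrine markers was 0.01. The median was -0.37 over 4 fibroblast markers, -0.21 over 5 of smooth muscle, -0.07 over 6 of T cells, -0.08 over 5 myeloid markers, -0.34 over 2 of endothelium, 0.13 over 2 of skeletal muscle and 0.03 over 2 of enteric neurons and glia. For 6 markers of B and plasma cells the median was -0.43, but their summed signal went from 13038 to 15992, carried by Jchain, the joining chain of secreted antibodies, at 0.37. For 4 stem cell markers the median was -0.01 and the summed signals were 4260 and 6620, carried by Olfm4 at 0.72. Defining markers of skeletal muscle (Ckm) and of neurons and glia (Elavl4 and S100b) had no kept probe set, nor had any of 3 erythroid markers. Pancreatic acinar markers were at least 1.5-fold higher in 4 of 4 measured genes, against 6.24% of all genes, with summed signals of 1870 and 7669 and a median of 2.21. The part of these cell types in the ratios of the glycolytic enzymes was not tested.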

How the data were processed

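RNA pooled per diet was hybridized to 1 Affymetrix MOE430_2 array each, and the authors summarized probe intensities with MAS 5.0, the default algorithm for these arrays. Its version and scaling target are not given in the sources used here. As deposited, the values are linear intensity signals. Their 2% trimmed mean was 500.0 on both arrays, so scaling the EPA&DHA array to that of the control hardly moved a value. Of 45101 probe sets, 64 controls were set aside. Names came from the platform annotation, updated through gene identifiers to RefSeq (GRCm38.p6): 34945 probe sets named 1 gene, 932 several and 9160 none. Probe sets with a geometric mean signal of at least 50 were kept (24461), and a gene took its brightest kept probe set naming it alone. The study's detection calls and change p-values were not used here.

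The text names all 10 enzymes with every probe set, the measured genes of the other glycolytic and Pfkfb lists, and otherwise genes at least 1.5-fold apart or the extremes of a list. Others, such as Hif1a, Myc, Mlxipl, Slc5a1, Slc2a2, Fbp1, Fbp2, Pdk2 and Pdp2, were named after their values were seen. Marker lists are given by their medians, with counts and summed signals for some. Tkt, Akt1, Insr, Vhl, Jchain, Olfm4, Agr2, Mcm6, Lgr5, Ascl2, Apob and Itgae were also named after their values were seen. The members and lists were chosen with earlier results of these data known, and the rule of 1 local SD was added after the ratios were seen. Alternatives were other scalings (none, median, quantile, loess with span 0.3), an offset of 50, other filters and other choices of probe set. The ratio and local SD steps were tested on simulated data. Computation used pandas 2.3.3 and numpy 2.4.6 under Python 3.11.15, with statsmodels 0.14.6 for the loess and matplotlib 3.10.9 for plots.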

Additional observations from a re-analysis of the deposited data

How the results depend on the processing

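The median log2 ratio of the 9 enzymes stayed between -0.33 and -0.25 under 10 alternatives of scaling, filter and probe set, the number of enzymes below 1 was 7 or 8, the number at least 1.2-fold lower was 4 (centring on the median, without Ldha and Pfkp) to 6, and 1 was at least 1.2-fold higher in each. The median ratio of all genes moved by less than 0.1 on the log2 scale under every scaling. Of 89 single enzyme values, 87 kept their sign. The exceptions were Pgk1, at 0.02 both after centring on the median and after the loess correction. With the kept probe sets of a gene averaged, the gap between Pfkl and Pfkp was 0.44 (0.70 as reported), the log2 ratio of Pfkp was -0.01 and the median of the other glycolytic genes was -0.086 (-0.21 as reported). With probe sets marked _x_at or _s_at left out, that median was -0.12, 8 of 11 probe sets of the enzymes were below 1, and Aldoa had no value. No paired analysis was possible because each diet has 1 array. The comparison of isoform proteins was not run. With 1 array per diet, precision is limited by the number of arrays.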
